A study of Mus musculus with 12 samples.

Results

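The comparison described here set livers of mice that had received doxorubicin and the compound K35 (DOX + K35) against livers of mice that had received saline (Saline). It used 6 of the 12 libraries of the series, the Saline libraries A1, A2 and A3 and the DOX + K35 libraries C1, C2 and C4, which were chosen by the treatment that the labels and column codes give. The 3 libraries of mice given doxorubicin without a compound (DOX) were used only to show on which side of Saline they lay. Of the 3799 genes in the deposited table, the 3317 with a mean of at least 1 FPKM over all 12 libraries were tested, 3129 with a gene symbol and 188 newly assembled loci without one. The table is named as a list of differentially expressed genes, so shares of the genes tested are shares of that selection and not of all liver genes. Adjusted and unadjusted p-values were likewise computed on genes already selected, and how far the selection shifts them was not tested. The question was what remained different from untreated liver, or had passed beyond it, after doxorubicin and K35 together.

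The animals were male C57BL/6J mice aged 8 weeks. DOX and DOX + K35 mice were injected intraperitoneally with 10 mg/kg doxorubicin at day 0 and a second time at day 7, and Saline mice with saline. From day 2, DOX mice received vehicle and DOX + K35 mice received 50 mg/kg of K35 by intragastric gavage every other day. Livers were collected on day 20. In the labels the Saline animals appear as vehicle, and whether Saline mice were also gavaged is not given in the sources used here. There was no group that received K35 without doxorubicin, so an effect of K35 itself and its effect on doxorubicin injury cannot be told apart.

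Doxorubicin is an anthracycline that poisons topoisomerase II and breaks DNA. Broken DNA activates p53, which switches on genes of cell-cycle arrest such as Cdkn1a, the gene of the inhibitor p21, together with genes of repair and cell death. Cells that stay arrested are called senescent and are known for holding high Cdkn1a and for secreting inflammatory factors. Hepatocytes, the main cells of the liver, carry a heavy load of protein synthesis and secretion, which rests on ribosome production in the nucleolus and on folding, glycosylation and export in the endoplasmic reticulum.

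Each value is a length-scaled expression level, treated here as FPKM (fragments scaled by transcript length and by the library's total). Read counts were not in the table, and library depth is unknown. C1 and C2 resembled each other across genes with a Pearson r of 0.991 on the log2 scale, while C4 resembled them at 0.923 and 0.934, and C4 carried a code that the sample labels do not list. In C4, 305 genes lay more than 2-fold above or below both C1 and C2, against 9 in C1 and 14 in C2. Saline library A3 also stood apart, with 178 such genes against 13 each in A1 and A2. Results are therefore given with and without C4. In these bulk samples, fewer cells of a type and less RNA per cell cannot be told apart.

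Few single genes separated DOX + K35 from Saline beyond the spread of the libraries. The log2(FPKM + 1) values were compared with limma and adjusted with the Benjamini-Hochberg method over all 3317 genes. At an adjusted p-value under 0.05, 6 genes (0.181% of those tested) passed, 3 higher and 3 lower in DOX + K35. The 3 higher were Cdkn1a, Ctps and Shld2, and the 3 lower were Il1rn, Fads3 and 1 newly assembled locus. Without C4, 2 genes (0.0603%) passed, Cdkn1a higher and Id1 lower, so that Cdkn1a alone passed with and without C4. Several other libraries decided the count as well: limma called 0 genes without A1, A2 or C1, or without D2 of a further group given another compound, K27, that shares the estimate of spread (560, 403, 355 and 481 genes at an unadjusted p under 0.05). Without the DOX library B4 it called 18, among them the same 6.

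A broader difference showed at the unadjusted threshold. At an unadjusted p-value under 0.05, 551 genes (16.6%) differed, 346 higher (10.4%) and 205 lower (6.18%) in DOX + K35. Of these, 362 also had an unadjusted p-value under 0.05 without C4, 231 higher and 131 lower. The 3 DOX + K35 libraries lay entirely above the 3 Saline libraries for 738 genes (22.2%) and entirely below them for 334 (10.1%). Over all genes tested the median log2 fold change stood at 0.13, and at 0.036 after median-ratio scaling, which sets the libraries to a common middle. Genes that reached only the unadjusted threshold are given below by their values and are not counted as changed.

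Cdkn1a, which encodes the cyclin-dependent kinase inhibitor p21, was the gene that separated the groups with and without C4. Cdkn1a lies on chr17:29090976-29100727 (GRCm38, plus strand). It was measured at 0.786, 0.674 and 0.958 FPKM in Saline, at 4.19, 3.51 and 1.98 FPKM in DOX, and at 6.03, 4.31 and 17.3 FPKM in C1, C2 and C4. Every DOX + K35 library lay above every DOX library, and every DOX library lay above every Saline library. Cdkn1a rose by 2.29 on the log2(FPKM + 1) scale (SE 0.38, limma, adjusted p = 0.0281), and by 1.76 without C4 (SE 0.29, adjusted p = 0.0391). In mean FPKM the level was 11.4-fold that of Saline, 9.20 ± 7.04 against 0.806 ± 0.143 (SD, n = 3 each), with C4 the highest library.

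Other targets of p53 were measured at higher levels in part. Of the 17 p53 targets tested, 4 were higher and 1 lower at an unadjusted p under 0.05, against 10.4% and 6.18% of all genes. Cdkn1a alone of them passed the adjusted threshold. By direction, 10 of the 17 lay above 0 and 7 below it, near the split of all genes (1952 and 1365). By library, 5 were apart and higher and 3 apart and lower, against 22.2% and 10.1% of all genes. The median log2 fold change of the 17 was 0.30, against 0.13 for all genes. The median was 0.17 without C4, against 0.12 for all genes, and 0.20 without C1. Phlda3, a p53 target that restrains AKT, was at 0.701, 1.08 and 1.20 FPKM in Saline, 5.83, 4.60 and 1.59 in DOX, and 5.15, 3.53 and 3.31 in DOX + K35. Neither treated group overlapped Saline, and the log2 fold change of Phlda3 in DOX + K35 was 1.32 (limma, adjusted p = 0.142). The nuclease gene Aen had a log2 fold change of 1.00 (adjusted p = 0.17), with all 3 DOX + K35 libraries above Saline. Tigar, a regulator of sugar metabolism, stood at 0.37 in DOX + K35 and at 0.40 in DOX, where neither group overlapped Saline. Mdm2, which encodes the ubiquitin ligase that degrades p53, was at 5.70, 4.96 and 6.75 FPKM in Saline, 9.92, 11.3 and 10.8 in DOX, and 7.72, 5.62 and 9.27 in DOX + K35. For Mdm2, DOX did not overlap Saline while DOX + K35 did. The kinase gene Plk3 was the lower member, with a log2 fold change of −0.87 (adjusted p = 0.219).

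Ctps and Shld2 were higher in DOX + K35 than in Saline without such a difference in DOX. Ctps encodes CTP synthase, which makes the nucleotide CTP for RNA, DNA and phospholipids, and lies on chr4:120539868-120570276 (GRCm38, minus strand). It was at 0.606, 0.454 and 0.642 FPKM in Saline, 0.740, 1.08 and 0.324 in DOX, and 2.73, 2.02 and 3.08 in DOX + K35. The Ctps values of DOX lay on both sides of Saline, and those of DOX + K35 lay above both groups. Ctps rose by 1.19 on the log2 scale (SE 0.18, limma, adjusted p = 0.0281), a 4.60-fold higher mean FPKM, and its adjusted p without C4 was 0.0596.

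Shld2 encodes a subunit of shieldin, a complex that protects broken DNA ends, and lies on chr14:34237033-34310493 (GRCm38, minus strand). Its levels were 6.09, 5.74 and 6.72 FPKM in Saline, 7.81, 6.14 and 4.40 in DOX, and 15.4, 15.1 and 21.0 in DOX + K35. Shld2 was thus at about the Saline level in DOX and above it in every DOX + K35 library. Shld2 rose by 1.33 (SE 0.24, limma, adjusted p = 0.0445), and without C4 the log2 fold change was 1.18 (adjusted p = 0.113). Several motifs were searched in promoter windows. Those of both genes held the letters GCATGCGC, a binding sequence of the factor NRF1, read on either strand, which 5.5% of the 2250 promoters of tested genes with a RefSeq window held. Of the 162 windows of genes higher at an unadjusted p under 0.05 with and without C4, 4.3% held these letters, so they did not mark the higher genes as a set. The letters do not show binding. They are shown in capitals as read 5′ to 3′ on the strand of the gene, so that a match on the opposite strand appears as GCGCATGC, and in Ctps a match on each strand overlaps. Ctps is from chr4:120570227-120570351, minus strand, with 3 matches, and Shld2 is from chr14:34310468-34310612, minus strand, with 1 match (RefSeq, GRCm38.p6).
Ctps: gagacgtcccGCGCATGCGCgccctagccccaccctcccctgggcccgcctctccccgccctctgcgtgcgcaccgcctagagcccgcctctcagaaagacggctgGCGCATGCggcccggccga
Shld2: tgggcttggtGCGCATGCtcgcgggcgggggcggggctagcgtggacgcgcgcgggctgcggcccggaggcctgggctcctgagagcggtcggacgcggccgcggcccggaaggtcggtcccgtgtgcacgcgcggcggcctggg

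Il1rn and Fads3 were the named genes that fell. Il1rn encodes the interleukin-1 receptor antagonist, which blocks interleukin-1 signalling, and lies on chr2:24336853-24351494 (GRCm38, plus strand). It was at 2.92, 2.84 and 4.34 FPKM in Saline, 1.10, 0.526 and 0.718 in DOX, and 0.597, 1.27 and 0.437 in DOX + K35. DOX and DOX + K35 overlapped each other, and both lay below Saline. Il1rn fell by 1.31 on the log2 scale in DOX + K35 (SE 0.21, limma, adjusted p = 0.0281), to 0.229 of the mean FPKM of Saline. Without C4 its log2 fold change was −1.18 (adjusted p = 0.0886).

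Fads3 belongs to the fatty acid desaturase family and lies on chr19:10041569-10060110 (GRCm38, plus strand). It was at 8.60, 9.57 and 6.22 FPKM in Saline, 6.88, 9.01 and 5.88 in DOX, and 2.55, 2.65 and 1.66 in DOX + K35. DOX overlapped Saline, and all DOX + K35 libraries lay below both. Fads3 fell by 1.47 (SE 0.27, limma, adjusted p = 0.0445), and without C4 the log2 fold change was −1.32 (adjusted p = 0.113).

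Id1, a helix-loop-helix inhibitor of differentiation and a target of BMP signalling, passed only without C4. It was at 23.2, 26.6 and 25.8 FPKM in Saline and at 9.10, 8.62 and 4.65 in DOX. In DOX + K35 it was at 4.89 in C1, 5.19 in C2 and 31.8 in C4. C1 and C2 lay within the range of the DOX libraries and C4 above Saline. Without C4, Id1 fell by 2.11 (SE 0.29, limma, adjusted p = 0.0139), and with C4 the log2 fold change was −1.30 (adjusted p = 0.24).

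**Figure D1:**
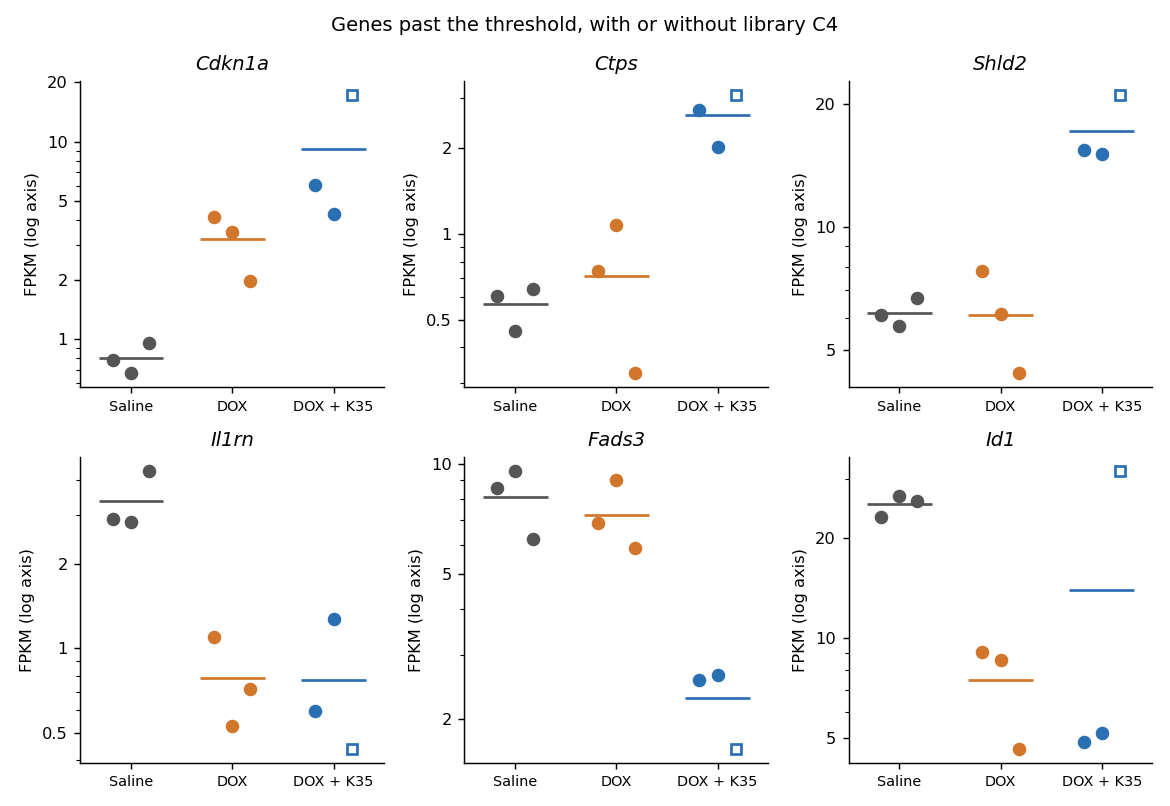
Level of 6 genes in each library of Saline, DOX and DOX + K35, in FPKM on a log axis. Points are libraries, the open square is C4 and lines are group means; Cdkn1a is highest in DOX + K35, Il1rn is low in both DOX and DOX + K35, and Id1 is high in C4 only among the treated libraries.

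To describe what stayed different and what passed beyond Saline, the mean of DOX was placed beside each gene. The position rests on group means alone, so a DOX mean close to Saline is also given a side. These comparisons share the Saline libraries, so the positions are a description without a test. Of the 6 genes past the adjusted threshold, the DOX mean lay between Saline and DOX + K35 for 4 and on the other side of Saline for 2, and for none beyond DOX + K35. For Ctps, Fads3, Shld2 and the newly assembled locus, the DOX libraries overlapped Saline. The positions were not counted over all genes tested. Of the 551 genes at the unadjusted threshold, it lay beyond DOX + K35 for 32, between for 180 and on the other side of Saline for 339. The last class held 267 genes that were higher and 72 that were lower in DOX + K35 than in Saline. Among the 362 genes with an unadjusted p under 0.05 with and without C4, the numbers were 14, 114 and 234. DOX libraries had 62.2% to 83.3% of their summed FPKM in mitochondrially encoded genes, against 48.2% to 61.9% in Saline, and over all genes the DOX vs. Saline median was −0.34 on the log2 scale. The part of this in the positions was not tested.

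The side of Saline on which DOX lay was also counted for genes whose DOX + K35 libraries were apart from Saline. The shares of all genes tested with DOX entirely above or below Saline were not counted. With the DOX vs. Saline median of all genes at −0.34, the 2 directions cannot be compared from these counts. Of the 738 genes that were apart and higher in DOX + K35, DOX was also entirely above Saline for 31 and entirely below it for 186. Of the 334 that were apart and lower, DOX was also entirely below Saline for 61 and entirely above it for 30. Besides Cdkn1a, Phlda3 and Il1rn, the genes on the side of DOX included Icam2, an adhesion molecule of endothelial cells and leukocytes, and Adamtsl2, an extracellular matrix protein. Icam2 was at 0.797, 0.904 and 1.07 FPKM in Saline, 1.997, 1.46 and 1.23 in DOX, and 2.66, 2.04 and 2.37 in DOX + K35 (limma, adjusted p = 0.095). Gria3, a glutamate receptor subunit, was at most 0.162 FPKM in Saline, between 2.02 and 2.18 in DOX, and at 0.804, 0.738 and 0.637 in DOX + K35 (adjusted p = 0.17). For Gria3, DOX + K35 lay between Saline and DOX with no overlap on either side. On the lower side, the mitochondrial carrier gene Slc25a34 was at 2.79, 2.18 and 2.59 FPKM in Saline, 1.35, 1.42 and 1.68 in DOX, and 0.600, 1.25 and 0.814 in DOX + K35 (adjusted p = 0.0989). Rab30, a small GTPase of the Golgi, had log2 fold changes of −1.42 in DOX and −0.85 in DOX + K35 (adjusted p = 0.188 in DOX + K35). Mapk15, an atypical MAP kinase, went the other way, with 4.51, 4.28 and 4.19 FPKM in DOX, 4.06, 3.20 and 3.69 in Saline, and 1.33, 1.69 and 1.08 in DOX + K35 (adjusted p = 0.0572).

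Ribosome biogenesis, the making of ribosomes in the nucleolus, was a group whose median lay above Saline in each DOX + K35 library. The list was written after genes with small p-values had been seen, so its counts are a description and not independent evidence. Of its 42 tested members, 27 were higher and 0 lower in DOX + K35 at an unadjusted p under 0.05, none passed the adjusted threshold, and 33 were apart and higher. Among all genes tested, 10.4% were higher at the unadjusted threshold and 22.2% were apart and higher. The median log2 fold change of the members was 0.58, and 0.57 without C4, against 0.13 and 0.12 for all genes. It was 0.47 after median-ratio scaling and 0.44 after quantile normalization. By library, the median of the members relative to the Saline mean was 0.62 in C1, 0.51 in C2 and 0.63 in C4, between −0.10 and 0.10 in Saline, and 0.04, −0.10 and −0.68 in DOX. All 3 DOX + K35 libraries were alike in this group, C4 included. Among the DOX libraries, B1 and B3 were near the range of Saline and B4 was below it. In DOX vs. Saline the median of the members was −0.29, against −0.34 for all genes.

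Members came from each step of ribosome assembly. Nol10, a nucleolar protein, was at 1.13, 0.738 and 1.17 FPKM in Saline and at 2.29, 2.69 and 2.98 in DOX + K35, a log2 fold change of 0.86 (SE 0.18, limma, adjusted p = 0.0847). Tsr1, a late factor of the small subunit, was at 3.57, 2.96 and 3.33 FPKM in Saline, 2.94, 4.27 and 1.75 in DOX, and 8.51, 6.56 and 8.65 in DOX + K35, 2.41-fold in mean FPKM (adjusted p = 0.145). For both genes the lowest DOX + K35 library lay above the highest Saline library. Rrp12, which helps export both subunits, had a log2 fold change of 0.94, and Heatr3, which brings ribosomal proteins to the nucleus, had 0.87. Nolc1, a nucleolar phosphoprotein, had 0.99, Gar1, of the machinery that makes pseudouridine, had 0.72, and Bop1, of the large subunit, had 0.70. Wdr43, Utp4 and Utp18, of the small subunit processome, had 0.81, 0.58 and 0.60, Nol11 had 0.69 and Ltv1 0.57. Their adjusted p-values (limma) lay between 0.0847 and 0.257 for all the members named here. The 12 cytosolic ribosomal protein genes in the table were less even, with 7 apart and higher, against 22.2% of all genes. Their median was 0.49, and 0.25 without C4.

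Promoters of this group were searched for CACGTG, the E-box that MYC and related factors bind, on both strands. RefSeq windows from 250 bases before to 50 bases after the start were found for 35 of the 42 members, and 9 of them (25.7%) held the E-box. Of all 2250 windows of tested genes, 11.1% held it, and of the 162 windows of genes higher at an unadjusted p under 0.05 with and without C4, 17.3%. Of the 60 windows of genes lower in the same way, 6.7% held it. Within the group, 23 windows belonged to members higher at an unadjusted p under 0.05. Of these, 6 held the E-box (26.1%, against 25.7% of all 35), so it did not mark the higher members. The letters are a description and do not show binding. The part of the window around the start is printed for the 6 members with an E-box and an unadjusted p under 0.05, with the E-box in capitals (RefSeq, GRCm38.p6). They are Tsr1 (chr11:74898005-74898129, plus strand), Wdr43 (chr17:71616140-71616264, plus strand), Nol11 (chr11:107189332-107189456, minus strand), Utp4 (chr8:106893565-106893689, plus strand), Ltv1 (chr10:13193088-13193212, minus strand) and Utp18 (chr11:93885717-93885841, minus strand). The E-box began 43 bases before the start in Nol11, 20 before it in Utp18, and 15 to 28 bases after it in the others.
Tsr1: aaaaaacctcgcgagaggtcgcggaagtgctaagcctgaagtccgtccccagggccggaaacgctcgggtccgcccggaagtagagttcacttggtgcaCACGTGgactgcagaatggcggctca
Wdr43: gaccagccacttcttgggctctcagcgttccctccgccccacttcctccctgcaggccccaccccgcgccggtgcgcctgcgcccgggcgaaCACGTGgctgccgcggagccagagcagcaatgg
Nol11: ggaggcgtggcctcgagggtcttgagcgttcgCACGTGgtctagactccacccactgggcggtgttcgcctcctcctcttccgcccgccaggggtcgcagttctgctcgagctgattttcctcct
Utp4: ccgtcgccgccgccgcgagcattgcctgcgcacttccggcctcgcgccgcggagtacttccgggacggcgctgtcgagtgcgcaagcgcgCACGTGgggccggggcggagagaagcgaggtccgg
Ltv1: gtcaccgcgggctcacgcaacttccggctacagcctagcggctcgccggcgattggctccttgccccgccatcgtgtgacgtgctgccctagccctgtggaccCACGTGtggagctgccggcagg
Utp18: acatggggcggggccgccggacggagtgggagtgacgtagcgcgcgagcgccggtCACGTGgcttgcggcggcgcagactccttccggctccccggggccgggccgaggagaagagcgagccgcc

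Genes that serve tRNAs also had a median above that of all genes. This list too was written after p-values had been seen. Of 16 tested, 5 were higher and 0 lower at an unadjusted p under 0.05, none passed the adjusted threshold, 9 were apart and higher, and the median log2 fold change was 0.37, and 0.20 without A3. Among all genes tested, 10.4% were higher at the unadjusted threshold and 22.2% were apart and higher. Trmt61a, a tRNA methyltransferase subunit, was at 1.01, 0.870 and 1.19 FPKM in Saline and 2.74, 2.08 and 2.74 in DOX + K35, and at 1.04, 0.842 and 0.646 in DOX. Its DOX + K35 libraries were apart from both other groups (log2 fold change 0.80, limma, adjusted p = 0.0705). The methyltransferase Mettl1 stood at 0.88, and the threonine and isoleucine tRNA synthetases Tars and Iars at 0.98 and 0.81 (adjusted p = 0.17, 0.186 and 0.219).

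Genes of the endoplasmic reticulum formed another such group. Of 13 chaperones and genes of the unfolded protein response, 4 were higher and 0 lower at an unadjusted p under 0.05, and 9 were apart and higher. Among all genes tested, 10.4% were higher at that threshold and 22.2% were apart and higher. All 13 had a log2 fold change above 0, with a median of 0.72. Dnajb9, a co-chaperone of BiP, was at 15.9, 11.8 and 12.1 FPKM in Saline, 11.8, 11.2 and 5.17 in DOX, and 34.0, 23.3 and 29.7 in DOX + K35. No DOX + K35 library of Dnajb9 overlapped another group (log2 fold change 1.07, limma, adjusted p = 0.184). Atf6, a sensor of unfolded proteins, stood at 0.78, the chaperone Hyou1 at 1.17, and Creld2, a secreted stress protein, at 0.90 (adjusted p = 0.209, 0.219 and 0.272). Hspa5, the gene of BiP, was at 201, 136 and 118 FPKM in Saline and 311, 205 and 291 in DOX + K35 (adjusted p = 0.419).

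Translocation, N-glycosylation and export from the endoplasmic reticulum, a list written after p-values had been seen, went the same way. Of 40 genes, 7 were higher and 0 lower at an unadjusted p under 0.05, 22 were apart and higher and 1 apart and lower, and the median was 0.50 (0.35 after quantile normalization and 0.32 without A3). Of all genes, 10.4% were higher at the unadjusted threshold, 22.2% were apart and higher, and 10.1% were apart and lower. Alg2, a mannosyltransferase of N-glycan assembly, was at 3.14, 3.79 and 3.51 FPKM in Saline, 4.19, 4.08 and 2.11 in DOX, and 7.86, 6.55 and 7.37 in DOX + K35 (log2 fold change 0.88, limma, adjusted p = 0.17). Mgat2, which extends N-glycans in the Golgi, stood at 1.10, the translocon-associated Nomo1 at 0.99, and Sec23b and Sec23ip, of COPII vesicles that leave the endoplasmic reticulum, at 0.92 and 0.70. None passed the adjusted threshold in any of these groups. By library, the median of the 40 genes was 0.62 in C1, 0.46 in C2 and 0.37 in C4, and −0.35 in A3.

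**Figure D2:**
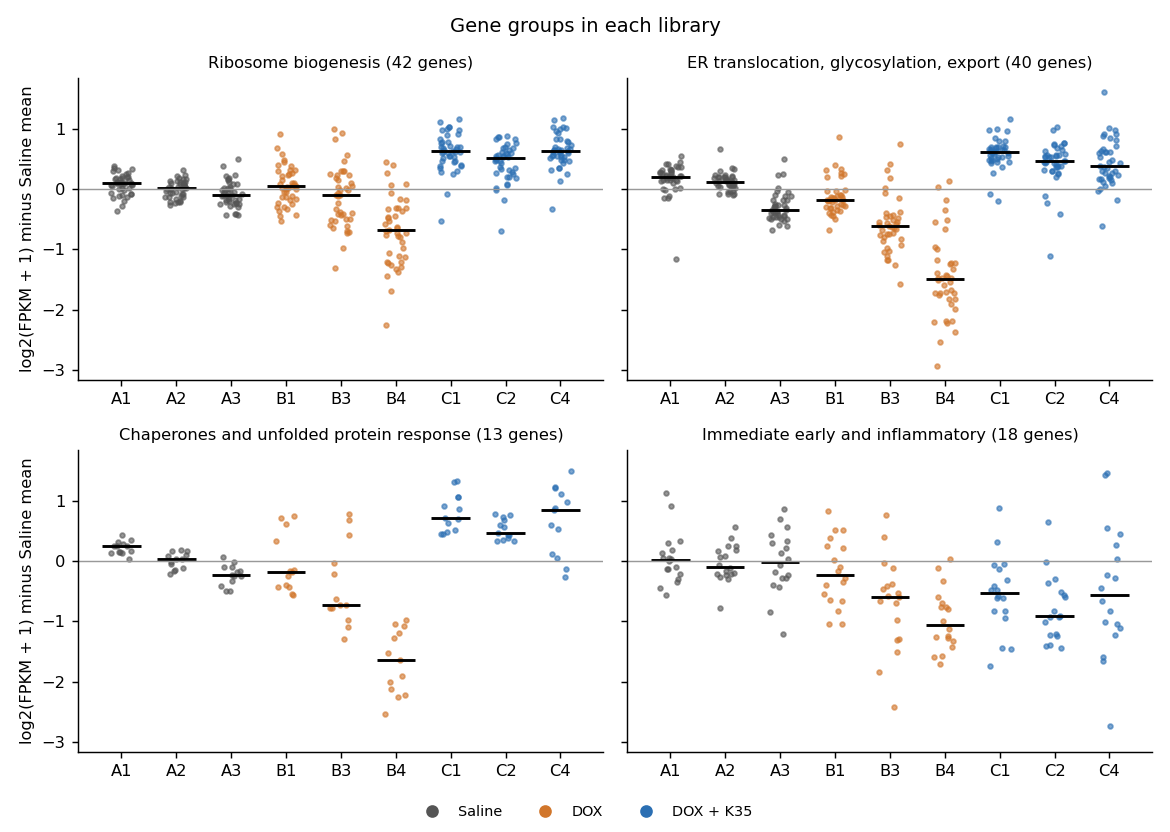
Log2(FPKM + 1) of each gene minus its mean in Saline, for 4 gene groups in the 9 libraries of Saline, DOX and DOX + K35. Points are genes and bars are medians; the ribosome biogenesis medians are 0.62, 0.51 and 0.63 in C1, C2 and C4, and library B4 is lowest in every group.

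Immediate early and inflammatory genes were among the groups with a median below 0 in both treated groups. Immediate early genes encode factors such as FOS and JUN that appear within minutes of a stimulus. The list was written after p-values had been seen. Of 18 tested, 1 was higher and 8 were lower at an unadjusted p under 0.05, 1 passed the adjusted threshold (Il1rn), and the members had a median of −0.67 in DOX + K35, −0.71 without C4 and −0.53 in DOX, where the median of all genes was −0.34. Among all genes tested, 10.4% were higher and 6.18% lower in DOX + K35 at the unadjusted threshold. Junb, a subunit of AP-1, was at 55.9, 25.4 and 59.6 FPKM in Saline, 34.3, 11.5 and 14.0 in DOX, and 12.4, 16.2 and 18.3 in DOX + K35. All DOX + K35 libraries of Junb lay below Saline (log2 fold change −1.45, limma, adjusted p = 0.17). Il1b, the gene of interleukin-1 beta, was at 4.05, 5.09 and 4.15 FPKM in Saline, 2.42, 2.33 and 2.13 in DOX, and 2.53, 1.30 and 2.99 in DOX + K35 (adjusted p = 0.184). The treated groups of Il1b overlapped each other and both lay below Saline.

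The same list held Il10rb, a receptor chain for interleukin-10, and Aif1, a macrophage gene, with log2 fold changes of −0.79 and −1.20 (limma, adjusted p = 0.17 for both). Ier2, Fos and Egr1 stood at −0.90, −1.23 and −1.59 (Egr1 at −1.03 without C4), and the values of Fos and Egr1 in DOX + K35 overlapped Saline. Tgfbr2, a receptor for TGF-beta, was the higher member at 0.99 (adjusted p = 0.18). All 9 tested markers of Kupffer cells and macrophages had a log2 fold change below 0, with a median of −0.52, and −0.32 without C4. None reached an unadjusted p under 0.05 with limma, and 1 was apart and lower, against 10.1% of all genes. Their summed level was 133, 111 and 299 FPKM in A1, A2 and A3, and 116, 134 and 81.8 in C1, C2 and C4 (p = 0.5, exact permutation test). C1 and C2 were thus at the level of A1 and A2. Of the other immune markers, 2 of B and plasma cells and 1 of neutrophils were tested, and none of T and NK cells was in the table. The part of cell composition in these values was not tested.

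Glucocorticoid-induced genes had a median above that of all genes, and a smaller one without C4. Of 13 tested, in a list written after p-values had been seen, 7 were higher and 0 lower at an unadjusted p under 0.05, 1 passed the adjusted threshold (Cdkn1a, which is also a p53 target), and the median was 0.80, and 0.54 without C4. By direction, 10 members lay above 0 and 3 below it, and 7 were apart and higher and 1 apart and lower. Among all genes tested, 10.4% were higher at the unadjusted threshold, 22.2% were apart and higher, and 10.1% apart and lower. Fkbp5, a chaperone of the glucocorticoid receptor, was at 6.36, 6.46 and 6.21 FPKM in Saline, 4.68, 2.29 and 2.42 in DOX, and 11.6, 13.2 and 52.3 in DOX + K35. Fkbp5 did not overlap Saline in any DOX + K35 library, and C4 was highest (log2 fold change 1.53 with C4 and 0.86 without, limma, adjusted p = 0.183 and 0.242). Ddit4, an inhibitor of mTORC1, was at 1.17, 1.36 and 2.75 FPKM in Saline and 3.91, 4.86 and 22.8 in DOX + K35 (adjusted p = 0.17), with a log2 fold change of 1.72, and 1.00 without C4. Foxo1, a factor that drives gluconeogenesis, was at 2.35, 2.10 and 2.51 FPKM in Saline, 1.66, 1.54 and 1.59 in DOX, and 4.65, 5.61 and 4.18 in DOX + K35, with no overlap between any of the 3 groups (adjusted p = 0.0989). Tsku, a secreted leucine-rich protein, had the highest log2 fold change of the list at 2.54 (adjusted p = 0.145), with 6.22, 6.75 and 26.5 FPKM in Saline and 44.7, 47.3 and 135 in DOX + K35. The clock repressor Cry1 stood at 0.95, and at 0.54 without C4 (limma, adjusted p = 0.184). Another clock repressor, Nr1d1, is outside this list and stood at −1.13 (limma, adjusted p = 0.219). Of 10 tested genes of the circadian clock and its output, 5 lay above 0 and 5 below it, with a median of −0.03.

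Genes of fatty acid and cholesterol synthesis had medians above that of all genes, and few members reached the unadjusted threshold. Of 12 genes of fatty acid synthesis, 3 were higher and 1, Fads3, was lower at an unadjusted p under 0.05, against 10.4% and 6.18% of all genes. Fads3 alone passed the adjusted threshold. The median was 0.80, 1.08 without C4, 0.51 without C1 and 0.22 without the Saline library A3. Acaca, the gene of acetyl-CoA carboxylase that commits carbon to fatty acids, was at 10.5, 9.11 and 5.12 FPKM in Saline, 7.24, 7.60 and 6.72 in DOX, and 17.2, 16.7 and 23.2 in DOX + K35. All DOX + K35 libraries of Acaca lay above the other groups (log2 fold change 1.15, limma, adjusted p = 0.145). Gpam, which starts triglyceride synthesis, and the elongase Elovl6 stood at 1.31 and 0.96 (adjusted p = 0.188 and 0.232). The 9 genes of cholesterol synthesis and uptake had log2 fold changes above 0, with a median of 0.51, and 1.00 without C4. Idi1, of the isoprenoid pathway, was at 46.4, 39.3 and 41.0 FPKM in Saline and at 182, 167 and 35.5 in C1, C2 and C4. C1 and C2 were thus above Saline and C4 below it (adjusted p = 0.27 with C4 and 0.0886 without).

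Cyp7a1, the rate-limiting enzyme of bile acid synthesis, followed the same pattern as Idi1 within DOX + K35. It was at 16.1, 34.9 and 37.3 FPKM in Saline, 79.1, 82.5 and 61.2 in DOX, and 104, 93.5 and 23.4 in C1, C2 and C4. DOX, C1 and C2 lay above Saline, and C4 lay within it (log2 fold change 1.12 with C4 and 1.80 without, limma, adjusted p = 0.292 and 0.121). Fatty acid oxidation and PPAR alpha targets were near Saline, with 0 of 39 at an unadjusted p under 0.05 in either direction, against 16.6% of all genes. Their median was −0.12, and 0.15 without C4. In DOX the median of these 39 genes was −1.30. Plin2, the coat protein of lipid droplets, was at 199, 191 and 126 FPKM in Saline, 76.6, 38.4 and 15.8 in DOX, and 96.2, 119 and 41.3 in DOX + K35 (adjusted p = 0.337), with a log2 fold change of −1.10, and −0.65 without C4. Plin2 did not overlap Saline in either treated group. Angptl4, an inhibitor of lipoprotein lipase, stood at −1.67 in DOX and −0.60 in DOX + K35, again without overlap with Saline (adjusted p = 0.362 in DOX + K35). G0s2, an inhibitor of fat breakdown, was at 49.05, 29.3 and 48.7 FPKM in Saline and 11.6, 16.0 and 7.53 in DOX + K35 (adjusted p = 0.17).

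Among hepatocyte functions, 14 of 25 conjugation enzymes had a log2 fold change above 0 and 11 below it, with a median of 0.44. By library, 7 were apart and higher and 3 apart and lower, near the shares of all genes (22.2% and 10.1%). Of all 3317 genes tested, 1952 lay above 0 and 1365 below it, with a median of 0.13. Gstt2, a glutathione transferase and the lowest of them, was at 101, 91.1 and 100.2 FPKM in Saline, 84.0, 74.8 and 56.6 in DOX, and 53.5, 41.4 and 34.9 in DOX + K35. Its 3 groups did not overlap, with DOX between the others (log2 fold change −1.17, limma, adjusted p = 0.17). Of 20 acute phase genes, 13 lay above 0 and 7 below it, with a median of 0.21, and 0.13 without C4. Hamp2, of the hepcidin family and the lowest of these, was at 510.2, 783 and 235 FPKM in Saline and 171, 228 and 61.6 in DOX + K35 (limma, adjusted p = 0.193). Cps1, the entry enzyme of the urea cycle, and Tdo2, which opens tryptophan, stood at 0.88 and 0.85 (limma, adjusted p = 0.282 and 0.27). Each was above Saline in all 3 DOX + K35 libraries. The 16 tested genes of the urea cycle and amino acid breakdown had a median of 0.12, near that of all genes. Of these 16, 10 lay above 0 and 6 below it, and 3 were apart and higher and 2 apart and lower. All 7 hepatocyte markers tested, Cps1 and Tdo2 among them, had a log2 fold change above 0, with a median of 0.40. Ppp1r3b and Gbe1, of glycogen synthesis, stood at 1.18 and 1.05 and Ppp1r3g at −2.26 (adjusted p = 0.195, 0.292 and 0.219).

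Respiratory chain genes had medians below 0, with few or no members past the unadjusted threshold. The 13 mitochondrially encoded genes made up 48.2% to 61.9% of the summed FPKM in Saline and 37.9%, 39.5% and 48.7% in C1, C2 and C4. The means were 52.95% ± 7.77 and 42.0% ± 5.85 (SD, n = 3 each), and C4 lay within the range of Saline libraries (p = 0.2 in a two-sided exact permutation test, whose smallest possible p with 3 against 3 is 0.1). All 13 had a log2 fold change below 0, with a median of −0.59, and none reached an unadjusted p under 0.05. The median was −0.044 after quantile normalization, −0.34 without A3, and 1.10 in DOX. The 36 nuclear genes of the respiratory chain had a median of −0.39 (−0.47 after quantile normalization and −0.23 without A3). Of them, 15 were apart and lower and 2 apart and higher, against 10.1% and 22.2% of all genes. Of these 36 genes, 26 lay below 0 and 10 above it, and 2 were lower at an unadjusted p under 0.05, near the share of all genes (6.18%). Ndufa5, of complex I, was at 26.9, 31.2 and 44.5 FPKM in Saline, 36.3, 44.1 and 43.7 in DOX, and 18.3, 20.1 and 20.5 in DOX + K35, where it lay below both groups (adjusted p = 0.235 with limma). Ndufb2, of the same complex, stood at −0.63 (adjusted p = 0.286).

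Interferon-stimulated genes had a median below 0 that rested on C4 and A3. Of 39 tested, 38 had a log2 fold change below 0, with a median of −0.48 that was −0.14 without C4 and −0.17 without A3. None was higher and 2 were lower at an unadjusted p under 0.05 with limma, near the share of all genes (6.18%). Isg15, a ubiquitin-like modifier, was at 9.36, 13.1 and 33.5 FPKM in Saline and at 11.96, 12.1 and 1.31 in C1, C2 and C4. C1 and C2 lay within the range of Saline, and A3 was the highest Saline library for Isg15 and for Xaf1 (9.77 FPKM).

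**Figure D3:**
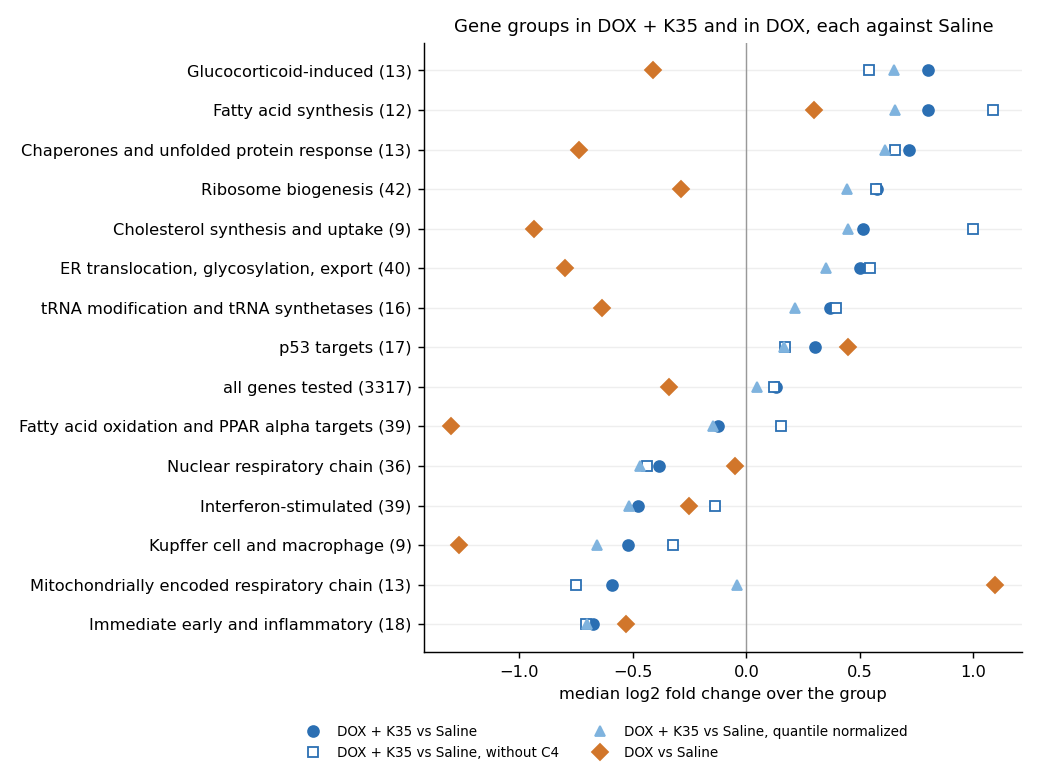
Median log2 fold change over each gene group, with the number of genes tested in brackets. Filled circles are DOX + K35 vs. Saline, open squares the same without C4, triangles the same after quantile normalization, and diamonds DOX vs. Saline. Ribosome biogenesis is at 0.58 in DOX + K35 and −0.29 in DOX, where all genes are at −0.34. Immediate early and inflammatory genes are below 0 in both.

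C4 differed from C1 and C2 in many genes, and liver genes of hormonal control were picked from among them. Of the others, Ccnd1 was at 44.7 and 22.2 FPKM in C1 and C2 and 1.37 in C4. Lrg1 was at 197 and 229 FPKM in C1 and C2, 1028 in C4, and 145, 167 and 1345 in Saline. The major urinary protein genes, which male mouse liver expresses under growth hormone and androgen, were nearly silent in C4. Mup2 was at 107, 184 and 136 FPKM in Saline, 136 and 125 in C1 and C2, and 0.818 in C4. Mup14 was at 119 and 134 in C1 and C2 and 1.10 in C4, and reads of these near-identical genes may be split between them. The 5 major urinary protein genes summed to 4.30 FPKM in C4, against 653 in C1, 1031 in C2 and 432 to 815 in Saline. Serpina6, the gene of corticosteroid-binding globulin, was at 649.6, 608 and 371 FPKM in Saline, 430.5 and 459 in C1 and C2, and 15.0 in C4. For Mup2, Mup14 and Serpina6, C4 lay far below all Saline and DOX libraries, and C1 and C2 lay within the range of Saline. Of the other major urinary protein genes, Mup19 was at 79.4 to 125 FPKM in Saline, 170.2 and 342 in C1 and C2, and 0.705 in C4, so that C1 and C2 lay above Saline and C4 below it.

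In the other direction, Sult1e1, the estrogen sulfotransferase, was at most 0.562 FPKM in Saline, 0.804 and 0.751 in C1 and C2, and 349 in C4. Gadd45b, a stress gene, was at 1.32 to 4.35 FPKM in Saline, 2.24 and 1.13 in C1 and C2, and 20.4 in C4. The 4 tested globin and erythroid genes had a median of −0.82 with C4 and 0.09 without it, and summed with 1 more below the minimum to 330.1 to 506 FPKM in Saline, 370 and 597 in C1 and C2, and 62.5 in C4. By contrast, Cdkn1a and the medians of the ribosome biogenesis and the immediate early genes were away from Saline in C1 and C2 as well.

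**Figure D4:**
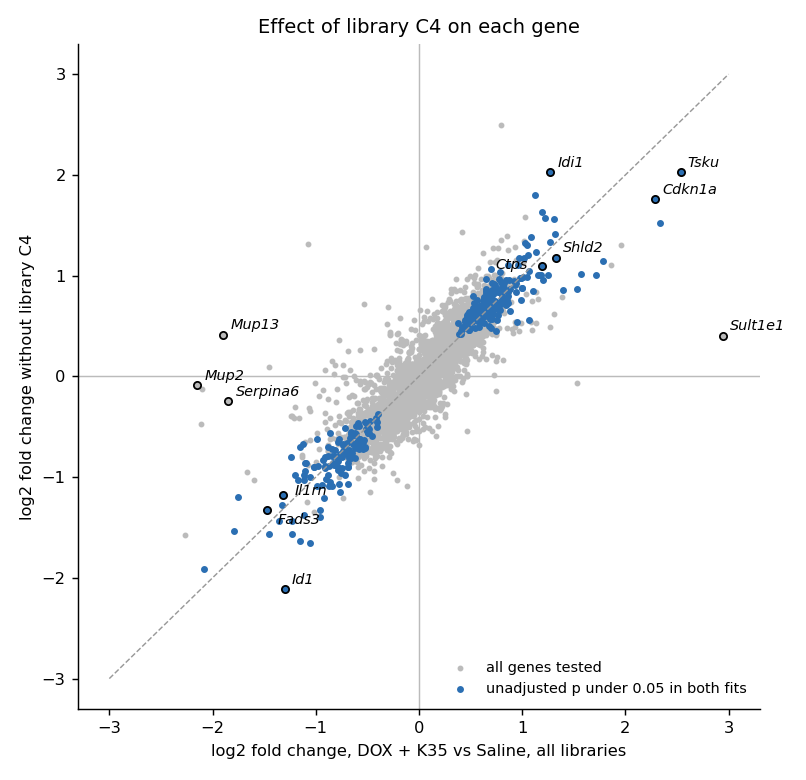
Log2 fold change of DOX + K35 vs. Saline for each of the 3317 genes, with all libraries on the horizontal axis and without C4 on the vertical axis. Genes in blue have an unadjusted p under 0.05 in both fits, the dashed line marks equal values, and Sult1e1 (2.94 against 0.40) and the Mup genes leave it.

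**Figure D5:**
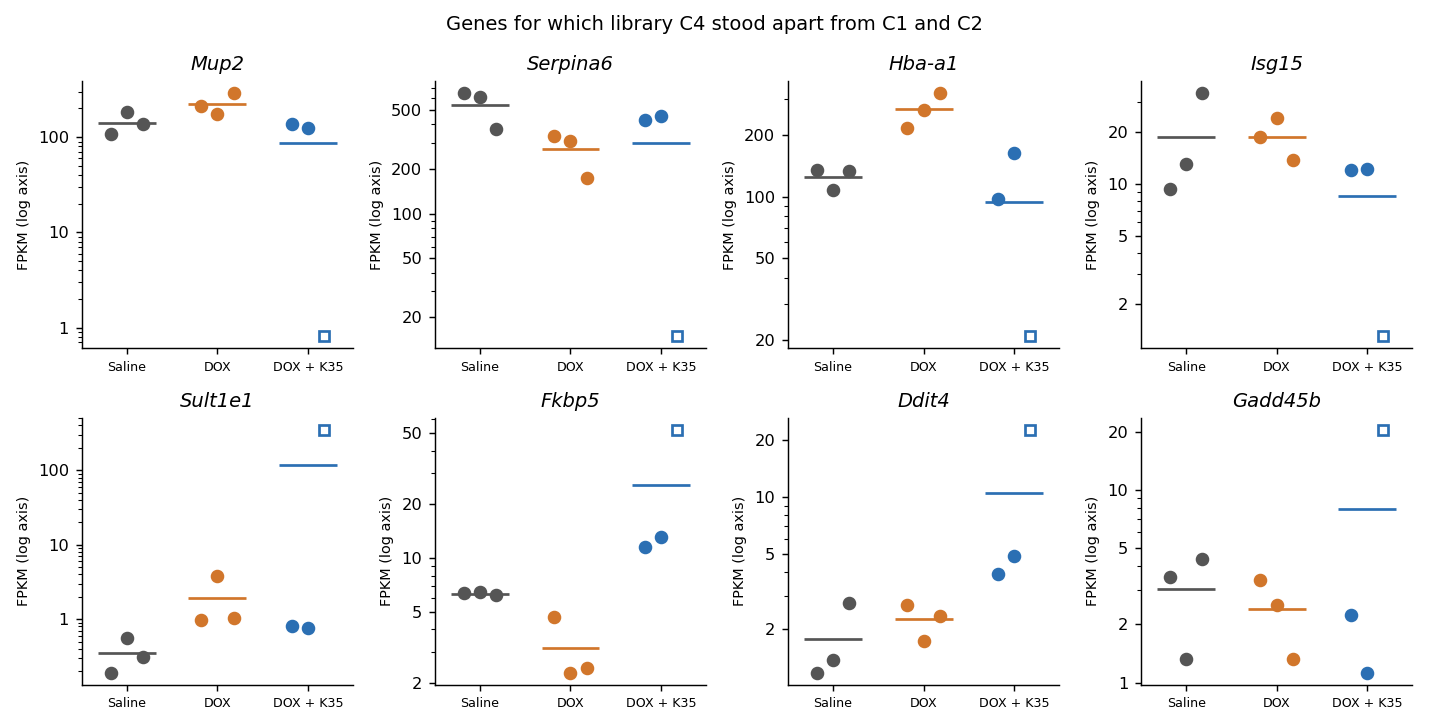
Level of 8 genes in each library of Saline, DOX and DOX + K35, in FPKM on a log axis. Points are libraries, the open square is C4 and lines are group means; C4 is lowest of all for Mup2, Serpina6, Hba-a1 and Isg15 and highest of all for Sult1e1, Fkbp5, Ddit4 and Gadd45b.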

How the data were processed

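Liver mRNA was selected with poly-T beads, prepared with the NEBNext Ultra kit and read on an Illumina NovaSeq instrument. A single table was deposited by the authors, with 3799 genes, treated here as FPKM because its values are length-scaled and not whole; the header names no unit (TPM would differ by 1 factor per library), and the table is named as a list of differentially expressed genes, with the comparison and threshold behind the selection not given in the sources used here. The submitters' processing notes name HISAT2, DESeq2, edgeR and GRCm38. All 3519 Ensembl identifiers occur in GENCODE M21, 3517 with the same symbol. The kit does not mark strand, so reads of genes overlapping on opposite strands (among them Cdkn1a, Junb, Tsr1, Mettl1, Mgat2, Plk3, Il1b, Nr1d1 and Shld2) cannot be told apart.

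Column codes B4 and C4 occur in no label, and B3 was taken with them by its letter alone, since labels B2 and C3 have no column. These 3 libraries entered by group and without a replicate number. Nothing states that libraries of a group came from separate animals beyond their labels, and p-values measure the spread between these libraries. No pair of the libraries compared held identical values.

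Values were transformed as log2(FPKM + 1), a scale that understates changes of low genes. The 482 genes averaging below 1 FPKM were dropped, and 3317 were fitted with limma 3.58.1 (lmFit, eBayes with trend) over 12 libraries in 4 groups, with Benjamini-Hochberg adjustment and a threshold of 0.05. The fit was tested on simulated data. The software was R 4.3.3 with Python 3.11.15 (numpy 2.4.6, matplotlib 3.10.9). RefSeq promoter windows within 1000 bases of the GENCODE start were searched on both strands for exact matches to the E-box (CACGTG) and the NRF1 sequence (GCATGCGC). The GC box, CCAAT box, TATA box, CARE and ISRE core were also searched and are not reported here.

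Members, lists and motifs were chosen with earlier results of these data known, and 5 lists after the p-values had been seen. The rule for named genes was those past the threshold with the largest changes, up to 4 members per list by smallest p, and 3 genes by smallest p for each position of DOX; not all that it gives are named, and others, such as the genes that mark C4, were chosen after their values were seen. Depth is unknown, and tests that need counts were not run. The alternatives were another pseudocount, no filter, 4 other scalings, other fits and thresholds, the replicate number as a block, and each library left out in turn.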

Additional observations from a re-analysis of the deposited data

How the results depend on the processing

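The number of genes changed in DOX + K35 vs. Saline (6, 3 higher and 3 lower) was small under nearly all settings. It was 8 with a pseudocount of 0.1, 3 with no filter (1 lower), 1 after quantile normalization (1 higher, 0 lower), and 6 after median-ratio scaling, without the 20 highest genes or without the mitochondrially encoded genes. With limma it was 0 in a fit of only the 2 groups (0 higher, 0 lower; 655 with an unadjusted p under 0.05), 0 without trend (0 and 0; 511) and 0 at an adjusted p under 0.01 (0 and 0; 551). Leaving out 1 library gave 0 to 18 in all, 0 to 14 higher and 0 to 4 lower. It was 0 with limma without A1, A2, C1 or the DOX + K27 library D2 (560, 403, 355 and 481 at the unadjusted threshold), 3 without A3, C2 or D3, 2 without C4, 1 without B3 and 18 without B4. Ctps passed in 7, Cdkn1a in 6, Il1rn in 5, and Fads3 and Shld2 in 2 of these 12 fits, with an unchanged direction. Without C4, the count of 2 became 4 after median-ratio scaling, 4 after quantile normalization, 4 with only the 2 groups and 1 without trend.

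The replicate block could be fitted only over the 9 libraries with a number, which leaves out B3, B4 and C4. It gave 235 genes (151 higher, 84 lower), 760 higher and 423 lower at an unadjusted p under 0.05, and a median of 0.0686. The same 9 libraries without the block gave 5 (4 higher, 1 lower), and 549 and 318 at the unadjusted threshold. Deviations of the 2 same-numbered pairs of Saline and DOX + K35 correlated at 0.109 and 0.250, and with 2 pairs the libraries share only a number.

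At the unadjusted threshold, 346 genes were higher and 205 lower; the lower count was 368 after median-ratio scaling and 352 without the 20 highest genes. Leaving out 1 library gave 187 to 518 higher and 138 to 271 lower. Over all genes the median log2 fold change (0.13) was 0.16 with a pseudocount of 0.1, 0.0364 after median-ratio scaling, 0.0484 after quantile normalization, 0.0278 without the 20 highest genes, and 0.0843 to 0.159 without 1 library. The median of the fatty acid oxidation list (−0.12) was 0.15 without C4, 0.15 over the 9 numbered libraries and 0.0090 with the replicate block, and −0.32 to 0.15 without 1 library. The values without C4, over the 9 numbered libraries and with the replicate block were 0.0226, 0.0226 and 0.21 for Hba-a1, −0.54, −0.54 and −0.26 for Gadd45b and 0.41, 0.41 and 0.38 for Mup13, each of opposite sign to the value with C4. Leaving out 1 library gave −1.43 to 0.0226 for Hba-a1, −0.54 to 1.12 for Gadd45b and −3.34 to 0.41 for Mup13. The cause was not tested for any of these. DESeq2 was not run because the table holds no counts.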
